A study of Mus musculus with 95 samples.

Results

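Libraries 9 to 16 and 40 to 48 were 16 of the 95 pancreatic islet libraries of this mouse RNA-seq series, and they shared a very low level of H2-Eb1, which encodes the beta chain of the MHC class II molecule I-E. They were chosen by measured values: H2-Eb1 below 10 CPM together with Dhrs7c below 10 CPM, where CPM is a gene's count divided by the total of its library and scaled to 1e6. Number 14 is not among the libraries, so 7 of the 16 have numbers from 9 to 16 and 9 have numbers from 40 to 48. The mice of the series belonged to the strains that founded the Diversity Outbred (DO) stock and ate a high-fat, high-sugar diet, with 45% fat in the label of every library. The labels give neither strain, sex, age nor animal per library, so neither the 16 nor the other 79 is a group of the study's design, and they may include several libraries of related or identical animals. Everything below is therefore a description of these libraries, given as medians and ranges without a test. The 16 held 21439724 to 32642173 counts each, with a median of 27423300, and the others held 16411809 to 34357253. A level of 1 CPM stood for 16.4 to 34.4 counts, and in the 16 a floor of 3 counts stood for 0.0919 to 0.14 CPM. As islet RNA, the 16 held the hormone transcripts of beta and alpha cells at 36115 to 69820 CPM of Ins1 and 7205 to 20808 CPM of Gcg, within or near the ranges of 15340 to 62101 and 2541 to 41935 CPM in the others.

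MHC class II molecules are pairs of an alpha and a beta chain that carry peptides from endocytosed protein to the surface of dendritic cells, macrophages and B cells, where helper T cells read them. The mouse has I-A, made from H2-Aa and H2-Ab1, and I-E, made from H2-Ea and H2-Eb1, and the genes of this complex on chromosome 17 differ strongly between inbred strains. Some strains lack an intact alpha chain gene for I-E, and for this reason the reference annotation lists that gene as a pseudogene, H2-Ea-ps. The invariant chain Cd74 and the H2-DM proteins assist peptide loading, and the activator Ciita switches the whole group on through conserved promoter elements that include the Y box. The windows from 250 bases before to 50 bases after the RefSeq start of H2-Eb1, at chr17:34305617-34305916 on the plus strand, and of H2-Aa, at chr17:34287774-34288073 on the minus strand, are shown because these neighbouring class II genes share this element while H2-Eb1 was low in the 16 libraries and H2-Aa was not. Both are reference sequence of build GRCm38.p6 from RefSeq, not sequence read from these libraries. Capitals mark the Y box letters CTGATTGG, searched on both strands.
H2-Eb1: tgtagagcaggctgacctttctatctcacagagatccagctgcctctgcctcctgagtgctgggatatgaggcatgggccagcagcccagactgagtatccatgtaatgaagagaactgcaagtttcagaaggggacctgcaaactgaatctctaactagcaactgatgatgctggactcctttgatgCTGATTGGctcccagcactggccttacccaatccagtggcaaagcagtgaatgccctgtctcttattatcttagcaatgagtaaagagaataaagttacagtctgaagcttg
H2-Aa: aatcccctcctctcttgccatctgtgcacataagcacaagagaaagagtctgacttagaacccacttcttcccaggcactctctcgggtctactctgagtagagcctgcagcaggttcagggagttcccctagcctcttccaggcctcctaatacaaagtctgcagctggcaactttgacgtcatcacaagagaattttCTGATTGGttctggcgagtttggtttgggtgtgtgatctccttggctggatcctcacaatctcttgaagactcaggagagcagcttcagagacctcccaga
The letters occur once in each window, starting 62 bases before the start of H2-Eb1 and 51 bases before that of H2-Aa. Of 32851 RefSeq windows of the same length, 4.1% hold them on either strand. A match describes these letters and does not show that a factor binds there.

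H2-Eb1 (chr17:34305877-34316199, GRCm38) lay between 0.618 and 1.77 CPM in the 16, with a median of 1.20, against 0.534 to 1729 CPM and a median of 39.5 in the others. By library, it was 1.02 CPM in libraries 9 and 10, 0.618 in 11, 1.11 in 12, 1.25 in 13, 1.36 in 15 and 1.37 in 16. In the other stretch it was 1.61 CPM in library 40, 1.15 in 41, 1.77 in 42, 0.618 in 43, 1.25 in 44, 0.766 in 45, 1.15 in 46, 1.27 in 47 and 1.37 in 48. The 16 thus spanned less than a factor of 3, and neither stretch lay apart from the other. Summed over the 16, the gene had 501 counts. Dhrs7c, which encodes a short-chain dehydrogenase, reached at most 0.374 CPM in them. Among the others, 9 libraries with numbers from 66 to 75 also had H2-Eb1 below 10 CPM, at most 4.33, but held Dhrs7c at 123 to 203 CPM. Just outside the rule on the H2-Eb1 side, the lowest level among the others with little Dhrs7c was 13.8 CPM, in library 8, so no library lay between 1.77 and 13.8 CPM except those of 66 to 75. These values chose the libraries and are not a finding.

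**Figure D1:**
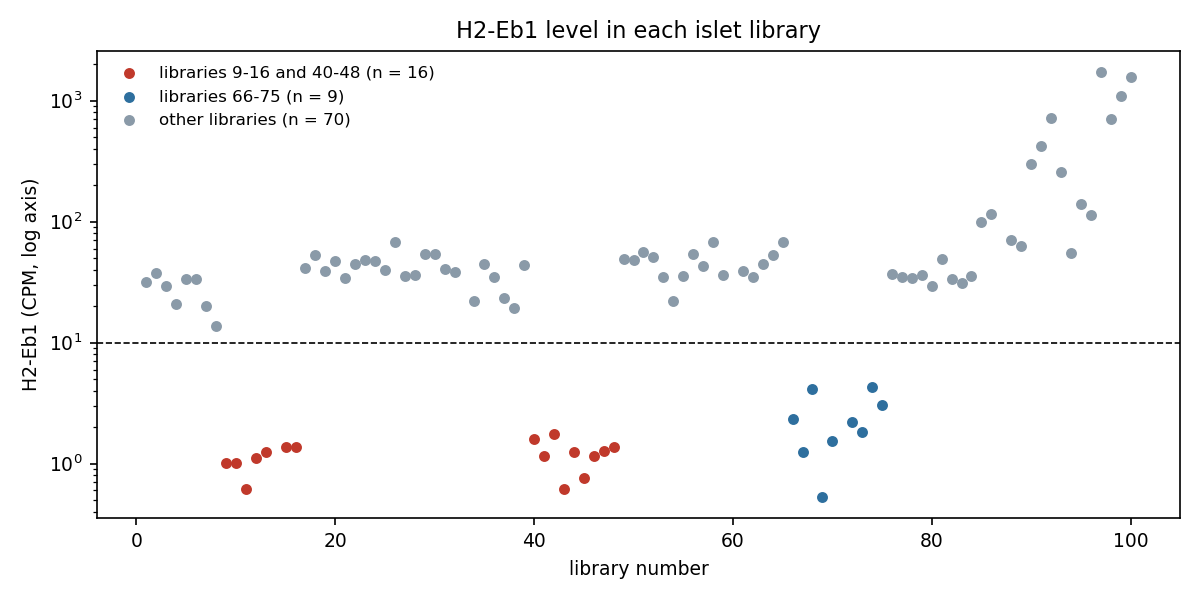
H2-Eb1 level in CPM on a log axis against library number for each of the 95 libraries, with libraries 9-16 and 40-48, libraries 66-75 and the remaining others in separate colours and the 10 CPM limit as a dashed line. The 16 lie between 0.618 and 1.77 CPM and libraries 66-75 at 4.33 CPM or lower, and all 70 remaining libraries lie above the line.

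The partner of H2-Eb1 was present. H2-Ea-ps (chr17:34342933-34344643), the alpha chain gene of I-E, lay between 14.2 and 34.0 CPM in the 16, with a median of 22.2, against 0 to 115 CPM and a median of 0.0929 in the others. It was above 10 CPM in 16 of 16, and its median was 22.0 CPM in libraries 9 to 16 and 22.5 CPM in libraries 40 to 48. Of the others, 22 had both H2-Ea-ps and H2-Eb1 at 10 CPM or more, 48 had H2-Eb1 alone at that level, and 9 had neither. Not all of the 48 lacked H2-Ea-ps, which ran from 0 to 8.98 CPM in them (median 0.0533). Libraries 1 to 8 and 34 to 39 lay on both sides of the limit, at 2.88 to 15.8 CPM (median 8.39). The 9 with neither were libraries 66 to 75, whose H2-Ea-ps level was 0.117 CPM or lower. The low beta chain transcript is what chose the 16, so only these 9 among the others could share it with a high alpha chain transcript, and 0 of the 9 did. H2-Ea-ps was singled out after its values were seen, and its count of 9700 over the 16 rests on sequence with 0% of its 31-base words in another gene.

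The remaining class II genes did not follow H2-Eb1. H2-Aa lay between 37.7 and 70.7 CPM in the 16 (median 46.9) and between 11.3 and 1837 CPM in the others (median 46.6). H2-Ab1 lay between 26.5 and 61.5 CPM in the 16 (median 34.6) and between 11.2 and 1716 CPM in the others (median 38.6). For both genes of I-A the 16 sat inside the range of the others. Cd74 had a median of 121 CPM in the 16 and 139 CPM in the others, and H2-DMa had 4.77 CPM in the 16 and 3.76 CPM in the others. Ciita lay between 0.0391 and 2.65 CPM in the 16 (median 0.935) and between 0.187 and 216 CPM in the others (median 1.74). H2-Eb2, a relative of H2-Eb1, was at most 0.168 CPM in the 16 and had a median of 0.0711 CPM in the others. In libraries 66 to 75, which shared the low H2-Eb1, H2-Aa had a median of 54.5 CPM and Cd74 one of 115 CPM. The highest level of each of these genes among the others, H2-Ea-ps aside, was in library 97.

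**Figure D2:**
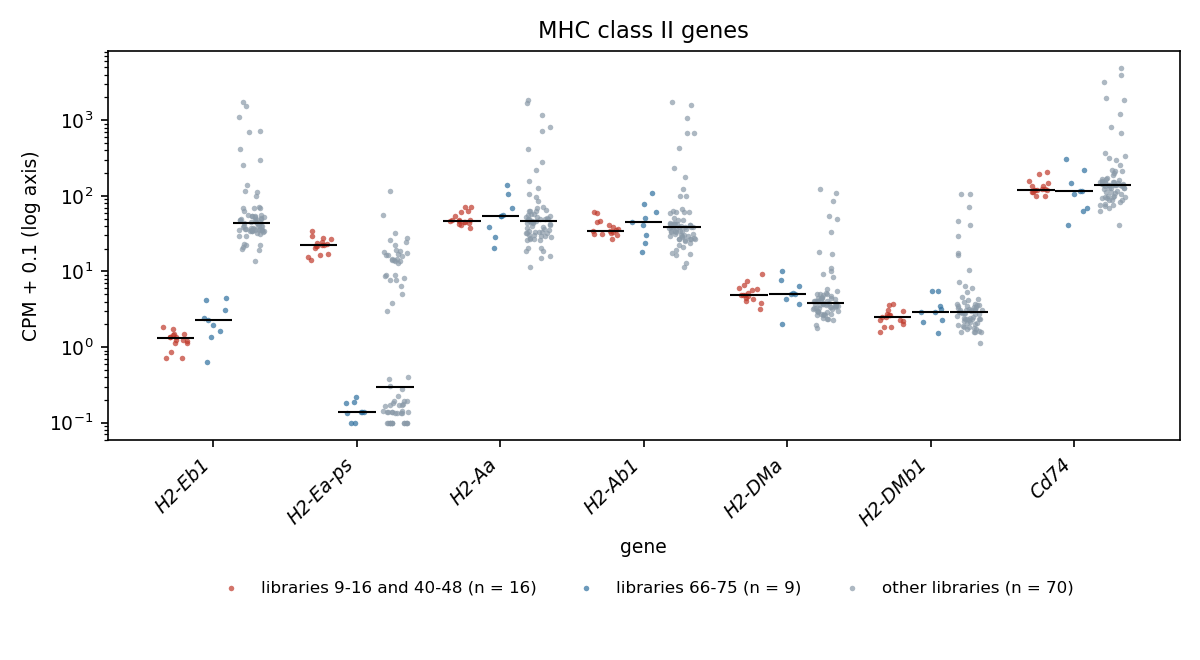
Levels of MHC class II genes in CPM plus 0.1 on a log axis, with 1 point per library and a black line at the median, for libraries 9-16 and 40-48, libraries 66-75 and the remaining others from left to right within each gene. H2-Eb1 is low in both sets on the left, H2-Ea-ps is high in the 16 and near 0 in libraries 66-75, and H2-Aa, H2-Ab1, H2-DMa, H2-DMb1 and Cd74 overlap in all of them.

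Beyond the genes that chose the libraries, 15279 autosomal genes with 1 CPM or more in at least 10 libraries were compared. Of these, 19 genes (0.124%) were higher in all 16 than in any of the 79 others and 22 genes (0.144%) were lower, 41 (0.268%) in all. The filter could be met by the 16 alone, which adds to the count of higher genes. At least Htr5b, Gm11851 and Gm19757 passed it only through the 16, with at most 0.775, 0.664 and 0.4975 CPM in the others. By a wider rule, the median log2(CPM + 0.5) of libraries 9 to 16 and that of libraries 40 to 48 each had to differ from the median of the others by 1 or more, in the same direction. This rule called 234 genes higher (1.53%) and 259 lower (1.7%), 493 (3.23%) in all, of which 181 of the higher and 177 of the lower genes were protein-coding. Such genes are called shifted here. With library sizes adjusted by TMM, 44 genes were higher without overlap and 42 lower, and these held 19 and 20 of the same genes. The median difference over all genes tested was -0.08 on this log2 scale. The 41 genes without overlap lay on 15 chromosomes, in 40 of 424 windows of 5 Mb, and 39 of those windows held 1 gene each. On chromosome 17, which carries the MHC, 3 of 762 genes tested did not overlap and 4.2% were shifted, and on chromosome 2, with the most genes without overlap, it was 8 of 1251 and 4.96%.

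The 2 stretches of numbers were also compared each with its own set of others. Libraries 9 to 16 against the 30 others numbered 39 or lower had 437 genes shifted higher, and libraries 40 to 48 against the 49 others numbered 49 or higher had 293. Of these, 177 were shared, 40.5% of the first list and 60.4% of the second, and 2 went the opposite way. For lower levels the lists held 326 and 405 genes with 207 shared, 63.5% and 51.1% of each, and 1 went the opposite way. Over all genes tested, libraries 40 to 48 had 1.92% shifted higher and 2.65% lower, and libraries 9 to 16 had 2.86% higher and 2.13% lower. These comparisons share no library.

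**Figure D3:**
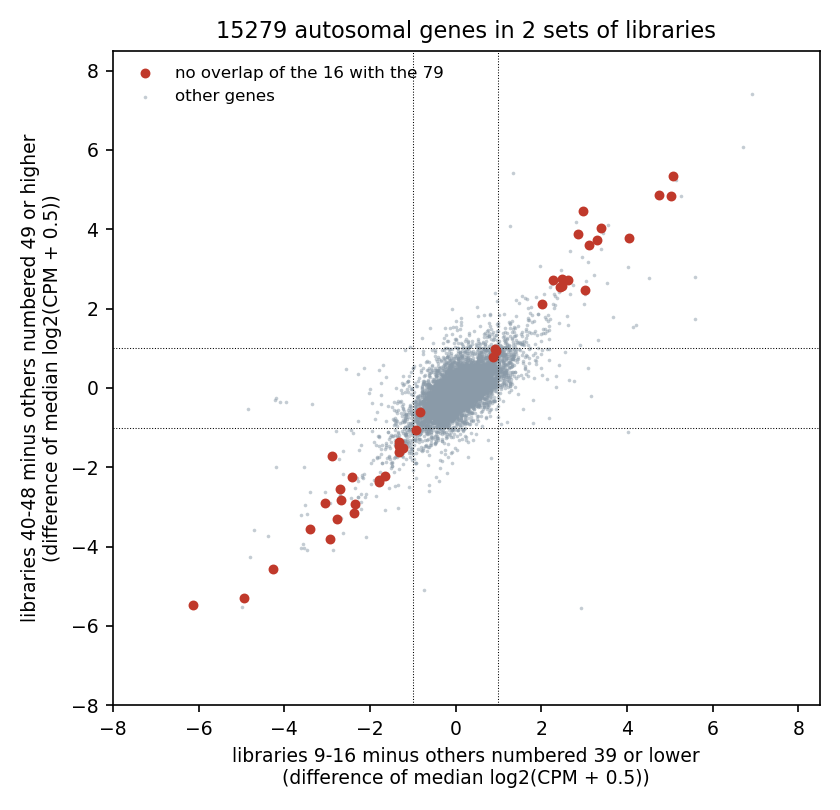
Difference of median log2(CPM + 0.5) for libraries 9-16 minus the others numbered 39 or lower, on the horizontal axis, and for libraries 40-48 minus the others numbered 49 or higher, on the vertical axis, for each of 15279 autosomal genes, with dotted lines at 1 and -1. The 41 genes whose ranges in the 16 and the 79 do not overlap are in red. Their direction is fixed by how they were picked, and 5 of them differ by less than 1 between the 16 and the 79.

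Among the protein-coding genes higher in the 16 without overlap, Cwc22 and Ntrk3 had the largest differences of medians. Cwc22 (chr2:77881159-77946375), a splicing factor that also helps to place the exon junction complex, lay between 485 and 1131 CPM in the 16 (median 841) and between 9.22 and 32.3 CPM in the others (median 22.0). The difference of medians was 5.22 on the log2 scale. Its lowest level among the 16 was in library 45, and its median was 697 CPM in libraries 9 to 16 and 967 CPM in libraries 40 to 48, with 25.0% of its 31-base words also in another gene. Ntrk3 (chr7:78175959-78738012), the receptor for the nerve growth factor relative neurotrophin-3, lay between 38.7 and 72.6 CPM in the 16 (median 55.2) and between 0.258 and 8.95 CPM in the others (median 1.45), a difference of 4.84. Lingo1, a neuronal membrane protein with leucine-rich repeats, lay between 47.4 and 99.9 CPM in the 16 (median 72.8) and between 2.09 and 46.6 CPM in the others (median 12.4). Its ranges almost touched, whereas those of Cwc22 and Ntrk3 left wide gaps.

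Il1f9, which encodes the inflammatory cytokine interleukin-36 gamma, lay between 3.98 and 18.4 CPM in the 16 (median 9.16) and at 2.61 CPM or lower in the others (median 0.115). Its level was not even between the stretches, with a median of 5.45 CPM in libraries 9 to 16 and 12.4 CPM in libraries 40 to 48. Col8a2, a collagen VIII chain, lay between 9.13 and 20.5 CPM in the 16 (median 17.6) and between 0.0349 and 5.32 CPM in the others (median 0.798). Sost encodes sclerostin, an inhibitor of Wnt signalling known from bone, and had a median of 4.18 CPM in the 16 and 0.232 CPM in the others, where the highest was 1.55. Kng2, a kininogen gene, had a median of 2.84 CPM in the 16 and 0.0743 CPM in the others, where the highest was 1.22. The sialyltransferase gene St6gal2 lay between 7.23 and 15.2 CPM in the 16 (median 12.9) and at most at 4.12 CPM in the others (median 0.732). The serotonin receptor gene Htr5b had medians of 2.98 CPM in the 16 and 0.0447 CPM in the others, and Nacad, a relative of the nascent polypeptide-associated complex, had 16.6 CPM in the 16 and 2.21 CPM in the others.

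The last 3 protein-coding genes differed less in size. Psmf1, an inhibitor of the proteasome, lay between 59.2 and 93.2 CPM in the 16 (median 73.8) and between 17.7 and 55.0 CPM in the others (median 38.2), a difference of 0.94. Polr2l, a small subunit of RNA polymerase II, had medians of 15.0 CPM in the 16 and 7.60 CPM in the others, and Rpl41, a ribosomal protein gene, had 76.7 CPM in the 16 and 43.8 CPM in the others. All of these genes lay close to or under 1 on the log2 scale, yet their ranges did not overlap.

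**Figure D4:**
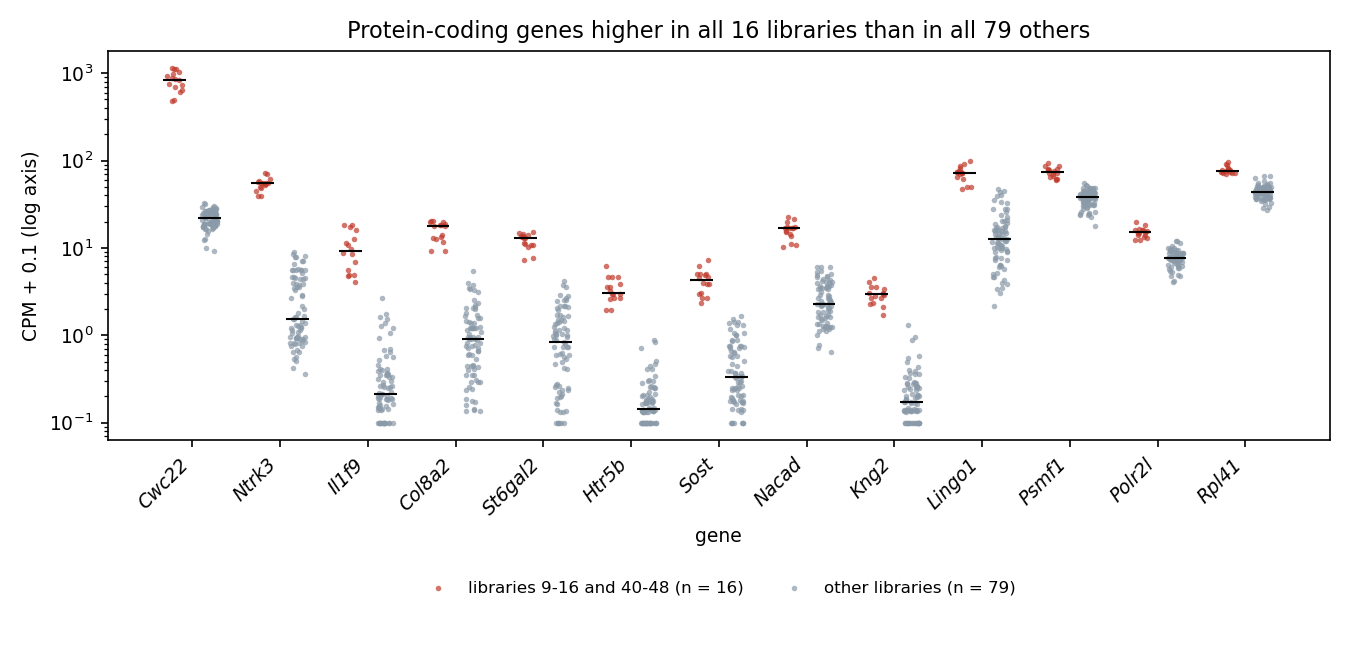
Levels of the 13 protein-coding genes that were higher in all 16 libraries than in all 79 others, in CPM plus 0.1 on a log axis, with 1 point per library, a black line at the median, and the 16 left of the 79 for each gene. Cwc22 and Ntrk3 show wide gaps and Lingo1, Polr2l and Rpl41 narrow ones.

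Among genes lower in the 16, Ly6c1 and Zfp738 were close to 0. Ly6c1 on chromosome 15, a surface protein of endothelial cells and monocytes, was at most 0.328 CPM in the 16 (median 0.075, under the floor of 3 counts) and lay between 3.62 and 49.6 CPM in the others (median 19.1). Up to 46.8% of its words are in another gene, so its reads could be split with a relative. Zfp738, a zinc finger gene on chromosome 13, lay between 0.0481 and 0.217 CPM in the 16 (median 0.0821, also under that floor). In the others it lay between 4.14 and 21.2 CPM (median 11.9). In the list of endothelial markers 0 of 10 were shifted, against 3.23% of all genes, so the count does not set the list apart. Their summed level was 702 to 1627 CPM in the 16 and 255 to 1266 CPM in the others. The part of endothelial cells in the level of Ly6c1 was not tested.

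Dpp4 (chr2:62330073-62412231) encodes dipeptidyl peptidase 4, the enzyme that inactivates the incretin hormones GLP-1 and GIP and is the target of the gliptin drugs. It lay between 2.82 and 7.45 CPM in the 16 (median 5.91) and between 10.5 and 135 CPM in the others (median 50.4), a difference of -2.99 on the log2 scale. The lowest values within the 16, 2.82 to 3.28 CPM, were in libraries 43, 44 and 45, and the lowest of the others was in library 8. Genes of exocrine (acinar) tissue took 24.3%, 23.9% and 30.2% of the counts in libraries 43, 44 and 45. The part of this share in the Dpp4 levels was not tested. Against its own set of others, the difference was -2.77 for libraries 9 to 16 and -3.32 for libraries 40 to 48.

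Elovl2, an elongase of polyunsaturated fatty acids, lay between 1.72 and 3.92 CPM in the 16 (median 2.97) and between 6.70 and 73.2 CPM in the others (median 20.9). Slc18a1, the vesicular monoamine transporter VMAT1, lay between 1.25 and 3.58 CPM in the 16 (median 2.00) and between 3.94 and 21.8 CPM in the others (median 12.5). Bco1, which cleaves beta-carotene to retinal, had medians of 1.98 CPM in the 16 and 8.81 CPM in the others. The sulfotransferase gene Sult1c2 had medians of 0.458 CPM in the 16 and 5.86 CPM in the others, and Htatip2 had 1.96 CPM in the 16 and 9.29 CPM in the others. Zfp541, a zinc finger gene, was at most 0.187 CPM in the 16 (median 0.0676, under the floor of 3 counts). In the others it lay between 0.334 and 13.7 CPM (median 2.09), with a median of 10.2 CPM in libraries 66 to 75. The kinase gene Nek11 was at most 0.352 CPM in the 16 and lay between 0.473 and 3.54 CPM in the others (median 1.33).

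Synj2, a phosphoinositide phosphatase, and Sephs2, the selenoprotein that makes selenophosphate, had the smallest differences, -0.96 and -0.64. Sephs2 lay between 27.4 and 35.9 CPM in the 16 (median 30.8) and between 37.8 and 78.1 CPM in the others (median 48.3). Both overlapped when library sizes were adjusted by TMM or by DESeq2 size factors and in the deposited variance-stabilised values.

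**Figure D5:**
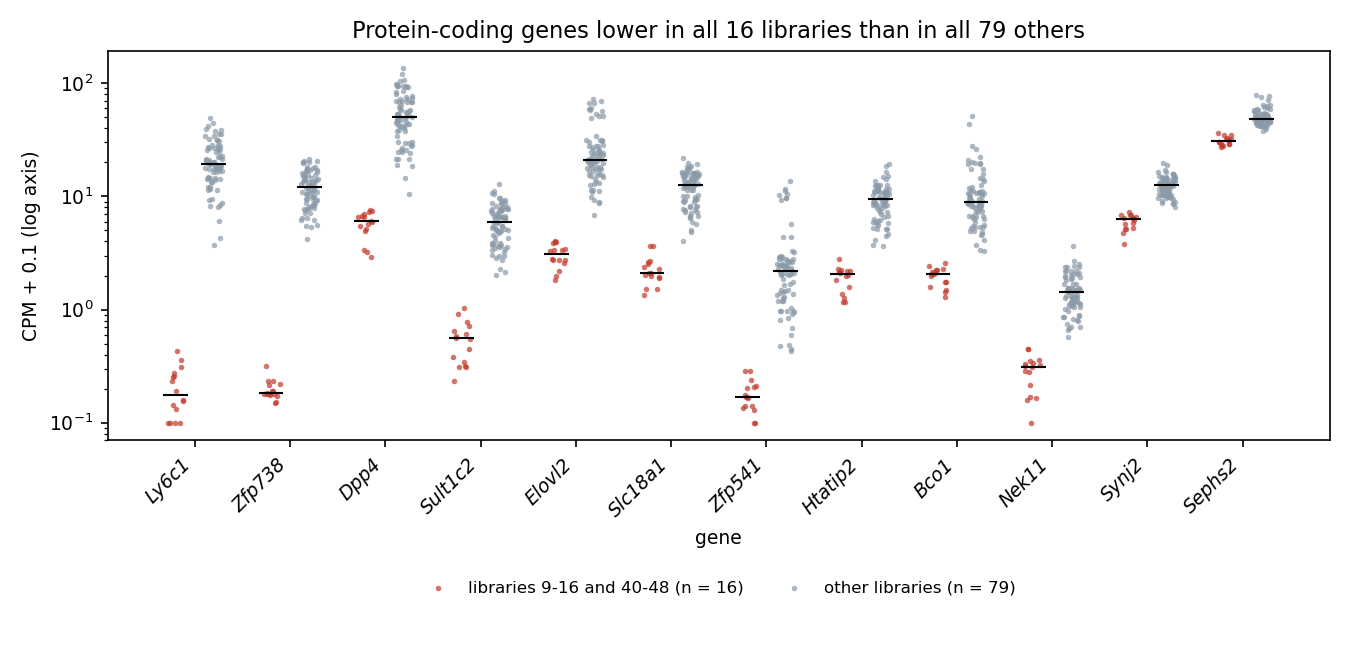
Levels of 12 protein-coding genes with at most 50% of their words in another gene that were lower in all 16 libraries than in all 79 others, in CPM plus 0.1 on a log axis, with 1 point per library, a black line at the median, and the 16 left of the 79 for each gene. Ly6c1 and Zfp738 are near 0 in the 16, and Synj2 and Sephs2 have narrow gaps.

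The 41 genes without overlap also held 4 pseudogenes and 9 noncoding or other transcripts, and 8 of the 41 had over 50% of their words in another gene. AI506816, a processed transcript on chromosome 5, lay between 0.157 and 0.747 CPM in the 16 (median 0.339) and between 1.03 and 109 CPM in the others (median 47.6). Rps15a-ps7, a processed pseudogene on chromosome 2, lay between 12.9 and 26.4 CPM in the 16 (median 18.9) and at 1.39 CPM or lower in the others (median 0.162), with 81.2% of its words in another gene. Gm10275, also a pseudogene, lay between 10.7 and 18.5 CPM in the 16 (median 13.7) and between 78.8 and 596 CPM in the others (median 167), with 96.0% of its words shared. Tgtp1, an interferon-induced GTPase gene, was at most 0.256 CPM in the 16 (median 0.082, under the floor of 3 counts). In the others it lay between 0.522 and 322 CPM, with 84.4% of its words shared. For genes with such sequence the counts depend on how reads were divided among copies, and they are uncertain. Higher levels were also found for Gm42764, Gm11851, Gm19757, Gm15983 and C230024C17Rik, with medians of 12.8, 7.43, 4.93, 4.97 and 2.82 CPM in the 16 and 0.661, 0.202, 0.0665, 0.421 and 0.358 CPM in the others. Lower levels were found for Gm29562, Gm14296, Gm9830, Gm26782, Zfp133-ps and Gm14168, with medians of 2.10, 1.19, 0.0483, 0.523, 0.334 and 0.0346 CPM in the 16 and 31.3, 12.7, 3.77, 3.02, 1.73 and 0.862 CPM in the others. Gm42764, Gm11851, Gm29562, Gm14296 and Gm9830 had 74.5%, 72.05%, 87.2%, 61.7% and 100% of their words shared. The medians of Gm9830 and Gm14168 in the 16 were under the floor of 3 counts. Gm14296 is annotated as protein-coding.

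Among the shifted genes whose ranges overlap, the following were singled out after their values were seen, from the most abundant protein-coding ones. Hnf4a (chr2:163506808-163572910), a nuclear receptor whose human counterpart is mutated in a form of maturity-onset diabetes of the young, lay between 7.34 and 17.8 CPM in the 16 (median 9.94) and between 16.5 and 61.8 CPM in the others (median 36.1). Of the 79 others, 78 were above the highest of the 16, and the differences were -1.51 for libraries 9 to 16 and -1.90 for libraries 40 to 48 against their own sets of others. Vil1, which encodes villin, an actin bundler of intestinal microvilli, lay between 12.5 and 26.4 CPM in the 16 (median 18.4) and between 1.83 and 171 CPM in the others (median 102). Of the others, 70 were above all of the 16 and 9 were below all of them. Those 9 were libraries 66 to 75, at 1.83 to 6.06 CPM (median 4.14). Anks4b, whose product takes part in linking microvilli, lay between 1.87 and 5.98 CPM in the 16 (median 3.68) and between 4.78 and 88.9 CPM in the others (median 39.7), with 78 of 79 above the 16. Myo15b, a myosin gene, lay between 4.23 and 11.4 CPM in the 16 (median 5.56) and between 7.75 and 179 CPM in the others (median 43.0).

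Other abundant genes that were lower included Slc12a7, a potassium-chloride cotransporter, with medians of 46.5 CPM in the 16 and 151 CPM in the others, and Kl, the FGF23 co-receptor klotho, with 15.5 CPM in the 16 and 36.9 CPM in the others. The cell cycle gene Ccnd1 had medians of 47.4 CPM in the 16 and 97.3 CPM in the others, and the membrane mucin gene Muc4 had 32.2 CPM in the 16 and 82.4 CPM in the others. Ncoa4, the receptor for the autophagy of ferritin, had medians of 8.31 CPM in the 16 and 65.8 CPM in the others, with 18.8% of its words in another gene. Atp5g2, a subunit of ATP synthase, had 4.82 CPM in the 16 and 61.3 CPM in the others, but 8 others lay below the 16 and 40.2% of its words were shared. These genes overlapped with the others to different degrees, since 75 of the 79 were above the 16 for Ncoa4 and 47 for Atp5g2. In libraries 66 to 75 Kl was as low as in the 16, at 5.69 to 15.9 CPM (median 14.5). For the other genes in this paragraph the median of libraries 66 to 75 lay above the highest level of the 16.

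Among higher abundant genes, Fut4, a fucosyltransferase, lay between 29.9 and 98.7 CPM in the 16 (median 61.6) and between 2.29 and 59.9 CPM in the others (median 5.06). Slco1a6, an organic anion transporter, had medians of 109 CPM in the 16 and 17.4 CPM in the others. Ica1l, a relative of the islet autoantigen ICA69, lay between 107 and 165 CPM in the 16 (median 131) and between 9.92 and 133 CPM in the others (median 42.3), with 75 of 79 below the 16. Gad1, which makes GABA and is a relative of the diabetes autoantigen GAD65, lay between 152 and 320 CPM in the 16 (median 244) and between 9.64 and 239 CPM in the others (median 110). The Notch ligand gene Jag2 had medians of 90.4 CPM in the 16 and 31.1 CPM in the others, and the Notch receptor gene Notch3 had 67.5 CPM in the 16 and 26.9 CPM in the others. Cish, an inhibitor of cytokine signalling, had medians of 155 CPM in the 16 and 72.9 CPM in the others. In libraries 66 to 75 Fut4 was also high, at 25.95 to 59.9 CPM (median 36.35), and in the remaining 70 it was at most 26.2 CPM. For the other genes in this paragraph the median of libraries 66 to 75 lay below the lowest level of the 16.

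In the window of H2-Eb1 itself, from 30 to 35 Mb of chromosome 17, 3 of 124 genes were shifted higher and 1 lower, 3.23% as over all genes. In the next window, from 35 to 40 Mb, which holds the class I genes of the D, Q and T regions, 6 of 75 genes were shifted higher and 5 lower, 14.7%. H2-D1, a classical class I heavy chain gene, lay between 53.7 and 106 CPM in the 16 (median 79.8) and at 72.5 CPM or more in the others (median 231), and 70 of the 79 were above the 16. H2-Q2 had medians of 3.33 CPM in the 16 and 53.8 CPM in the others. H2-Q6 had 1.05 CPM in the 16 and 4.99 CPM in the others and H2-Q10 had 3.13 CPM in the 16 and 7.22 CPM in the others. H2-T22 was higher, at 21.4 to 38.2 CPM in the 16 (median 29.6) and 0.261 to 88.2 CPM in the others (median 9.64), and so was Gm8909, at 16.2 to 27.4 CPM in the 16 (median 21.6) and 0.036 to 24.4 CPM in the others (median 0.908). Libraries 66 to 75 also had low H2-Q2, at 2.655 to 8.69 CPM (median 5.99), and high Gm8909, at 8.3 to 18.5 CPM. Their H2-T22 was low, at 1.97 to 5.59 CPM, and their medians of H2-D1, H2-Q6 and H2-Q10 were 171, 5.69 and 7.52 CPM. Of all 79 others, 14 lay below the 16 for H2-Q2. The shared words of the 11 shifted genes ran from 17.0% to 90.1%, so class I levels depend on how reads were divided. H2-K1, the classical class I gene at the other end of the complex, was not shifted, with medians of 168 CPM in the 16 and 227 CPM in the others.

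Windows with many shifted genes were looked for after the values were known. On chromosome 2, from 175 to 180 Mb, 17 of 46 genes were lower and 1 was higher, a share of 39.1% against a median of 2.4% over the windows. Most are numbered gene models, such as Gm14296 and Gm8898. Gm8898 had medians of 0.585 CPM in the 16 and 10.1 CPM in the others. Of the 17, 16 had over 50% of their words in another gene, so these are not independent measurements. On chromosome 17, from 5 to 10 Mb, 6 of 35 genes were lower, among them Tmem181a, with medians of 23.4 CPM in the 16 and 67.8 CPM in the others, and the dynein light chain genes Dynlt1a, Dynlt1b and Dynlt1c. Of the 6, 4 had over 50% of their words in another gene, these dynein genes among them, so they are not independent measurements either. On chromosome 6, from 75 to 80 Mb, the regenerating islet-derived genes Reg2, Reg3b and Reg3a were lower, 3 of 10 genes. Reg2 lay between 1.00 and 27.7 CPM in the 16 (median 3.03) and between 0.908 and 3278 CPM in the others (median 17.5), a wide overlap.

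The lists of genes for cell types and pathways were mostly not shifted, to be read against the 3.23% of all genes. Of 22 beta cell identity genes, 0 were shifted, and the same count held for 8 hormones, 7 alpha cell genes, 5 delta cell genes, 20 genes of the unfolded protein response, 19 of cholesterol synthesis, 16 of the circadian clock and 16 of macrophages and dendritic cells. Ins2 had medians of 129522 CPM in the 16 and 109595 CPM in the others, and Gcg had 12669 CPM in the 16 and 12446 CPM in the others. The somatostatin gene Sst was somewhat higher, at 2494 to 6730 CPM in the 16 (median 4013) and 558 to 10664 CPM in the others (median 2271), under the limit for a shift. Class I presentation had 1 gene higher and 3 lower of 17, namely H2-T22, H2-D1, H2-Q6 and the activator Nlrc5, which had medians of 0.483 CPM in the 16 and 1.51 CPM in the others.

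In the interferon list, 3 of 24 genes were lower and 0 higher, and its median difference was -0.47 against -0.08 for all genes. Mx1, an antiviral GTPase, lay between 0.0346 and 0.384 CPM in the 16 (median 0.15) and between 0.231 and 50.2 CPM in the others (median 1.37). Rsad2, the antiviral enzyme viperin, had medians of 1.93 CPM in the 16 and 7.48 CPM in the others, and Gbp3 had 1.25 CPM in the 16 and 3.75 CPM in the others. The summed level of the list was 183 to 418 CPM in the 16 and 96.3 to 3072 CPM in the others, so the ranges overlapped. Macrophage and dendritic cell markers, which carry class II, summed to 55.3 to 115 CPM in the 16 (median 71.0) and 36.2 to 3095 CPM in the others (median 96.1). Of 15 lymphocyte genes, the antibody chain genes Ighm and Jchain were lower by their medians, 2.40 and 0.28 CPM in the 16 and 6.58 and 2.88 CPM in the others. Library 43 went against this, with 80.3 CPM of Ighm and 14.6 CPM of Jchain. In bulk RNA, fewer cells of a type and less RNA per cell cannot be told apart.

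Of 29 genes for the handling of foreign compounds and glutathione, 2 were higher and 2 lower. Nqo1, a quinone reductase, lay between 15.8 and 58.6 CPM in the 16 (median 35.8) and between 1.19 and 51.1 CPM in the others (median 8.26), and Gsta4, a glutathione transferase, had medians of 3.09 CPM in the 16 and 0.643 CPM in the others. The glutathione transferase gene Gstt1 was lower, at 4.62 to 10.8 CPM in the 16 (median 6.79) and 8.46 to 32.8 CPM in the others (median 20.4), and so was the carbonyl reductase gene Cbr3, with medians of 0.915 CPM in the 16 and 2.66 CPM in the others. Of 13 genes of exocytosis, Cplx1, a regulator of vesicle fusion, was higher, with medians of 3.54 CPM in the 16 and 1.30 CPM in the others. Libraries 66 to 75 held Nqo1 at 13.3 to 51.1 CPM (median 30.7), and the remaining 70 held at most 20.8 CPM. The median of Cplx1 in libraries 66 to 75 was 3.11 CPM, near that of the 16, and Cbr3 was lower still at 0.405 CPM. Gsta4 and Gstt1 had medians there of 1.74 and 17.4 CPM, between those of the 16 and of all others.

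Acinar genes, which mark exocrine tissue carried along with islets, were higher by their medians in 7 of 22. Cpa1, a pancreatic carboxypeptidase, lay between 862 and 22396 CPM in the 16 (median 8002) and between 172 and 30598 CPM in the others (median 3740). Against the others numbered 39 or lower, the difference for libraries 9 to 16 was 0.32, and against those numbered 49 or higher it was 1.39 for libraries 40 to 48. The summed level of all 22 genes was 13683 to 302049 CPM in the 16 (median 113006) and 2903 to 464694 CPM in the others (median 67061), with 0 of the 22 lacking overlap. By library it ran from 1.37% of counts in library 48 to 30.2% in library 45. Cwc22, Ntrk3 and Il1f9 were at or near their lowest in library 45, at 485, 39.1 and 3.98 CPM, and the part of the acinar share in these levels was not tested. Without library 45 and the 12 others over 25%, 23 genes were higher without overlap and 50 lower. These held all 19 and 22 of the genes above by construction, since a gap over all libraries remains in any subset. The count therefore does not test the acinar share. In the duct list 1 of 12 genes was higher, the osteopontin gene Spp1, with medians of 88.6 CPM in the 16 and 40.9 CPM in the others, while the list summed to medians of 758 CPM in the 16 and 773 CPM in the others. In the fibroblast and stellate list 1 of 11 was higher, the pericyte gene Rgs5, with medians of 245 CPM in the 16 and 106 CPM in the others, and the list summed to 576 CPM in the 16 and 315 CPM in the others. In the erythroid list 1 of 4 was higher, the globin gene Hba-a1, with medians of 3.11 CPM in the 16 and 0.203 CPM in the others and 75.5% of its words in another gene, while the list summed to 51.1 CPM in the 16 and 49.9 CPM in the others.

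The 16 libraries resembled each other across the genome. Spearman's rho over the genes tested was 0.972 to 0.996 between libraries of the 16 (median 0.987) and 0.778 to 0.971 between them and the others (median 0.953), as a description of libraries that share the genes but not the depth. For 16 of 16 the nearest library was another of the 16, and so were all 15 of the nearest. For 16 of 16 this held for the nearest library also without chromosome 17. Library 9 was nearest to library 42, at 0.992, so likeness crossed the 2 stretches of numbers. In all 120 pairs of the 16, chi-square over its degrees of freedom was at least 9.52, so no pair agreed within counting noise. Xist, which marks an inactive X chromosome, was at 100 CPM or more in 9 of the 16, and the Y-linked Ddx3y was at 10 CPM or more in the other 7. Library 45 held both transcripts, with 11.0 CPM of Xist and 38.5 CPM of Ddx3y.

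Between libraries 9 to 16 and libraries 40 to 48, 13 genes (0.0851%) did not overlap, 6 of them higher in libraries 9 to 16. Sdc4, a heparan sulfate proteoglycan, lay between 58.0 and 90.7 CPM in libraries 9 to 16 and between 31.0 and 47.4 CPM in libraries 40 to 48. Synpr, a synaptic vesicle protein, lay between 27.4 and 46.9 CPM in libraries 9 to 16 and between 13.2 and 25.9 CPM in libraries 40 to 48. Gpt, alanine aminotransferase, lay between 3.59 and 5.44 CPM in libraries 9 to 16 and between 6.27 and 9.01 CPM in libraries 40 to 48. The others were Igf2r, Nomo1, Fgl2 and Pls1, higher in libraries 9 to 16, and Prpsap1, Thpo, Trip6, Cpne5, Dnase1l2 and Gm37352, lower there.

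Over all 95 libraries, the 16 chosen on H2-Eb1 among them, the autosomal genes whose levels ran most alike with H2-Eb1 were H2-D1, with a Spearman rho of 0.87, the pseudogene Gm10275 with 0.868, Lilr4b with 0.861, Pstpip2 with 0.823 and Lilrb4a with 0.816. Lilr4b (chr10:51480632-51486316) and Lilrb4a (chr10:51480640-51496613) overlap in position, so they may not be separate measurements. Lilrb4a encodes an inhibitory receptor of myeloid cells, and Pstpip2 an adaptor of macrophages. Genes picked for following H2-Eb1 are low by construction where it was chosen to be low, so these levels restate the choice and are no separate result. In the 16, Pstpip2 lay between 0.872 and 2.24 CPM (median 1.36), against 0.344 to 11.5 CPM in the others (median 6.84). It was also low in libraries 66 to 75, at 0.344 to 3.48 CPM. The points share library totals and acinar content, and libraries with nearby numbers may be related.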

How the data were processed

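RNA-seq of pancreatic islets from 95 libraries was used. Per the labels' protocols, RNA was column-purified with a DNase step, spiked with ERCC controls and made into libraries from poly(A) RNA. The deposited table holds estimated counts from the authors for 20638 genes, without normalization, and 67.7% of its values were whole to within 1e-06. A second deposited table holds the authors' variance-stabilised values, close to log2, for the same genes. Per the submitters' processing notes, the build was GRCm38 and DESeq2 was used, in a role not given. Aligner, counting tool, strand use, annotation release and the treatment of reads that differ from the reference are not given in the sources used here. Reads from libraries whose sequence differs from the reference can be lost or assigned to another copy, which affects levels of H2 genes and gene families. All columns were mapped to samples, and 0 were left unmapped.

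Counts were divided by column sums to give CPM, and log2(CPM + 0.5) was taken. Autosomal genes with 1 CPM or more in at least 10 libraries were compared, H2-Eb1 and Dhrs7c left out. The labels give no groups, and the 16 libraries were chosen on measured levels, so no test was run and no p-value is given. Members and the 29 gene lists were chosen with earlier results of these data known. Genes were named by a rule: protein-coding genes without overlap with at most 50% of their 31-base words in another GENCODE M21 gene, in order of difference, the most abundant genes without overlap, list members without overlap or shifted in both stretches of numbers, class II genes, and the 5 genes most like H2-Eb1. H2-Ea-ps, H2-K1, the abundant shifted genes, the windows and the genes that differ between the stretches were chosen after their values were seen. Not every gene that this rule names is reported here. Identifiers of 20532 genes matched GENCODE, and coordinates are those of the authors' table. The counting rules were tested on simulated data. Tools were Python 3.11.15, pandas 2.3.3, R 4.3.3, edgeR 4.0.16 and DESeq2 1.42.0, the last pair for library sizes only. Alternatives covered the pseudocount, scaling, filter and sets of libraries. Floors cover counting error only.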

Additional observations from a re-analysis of the deposited data

How the results depend on the processing

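Of the 82 named differences, none of 1 or more on the log2 scale changed direction under the alternatives run. The 82 include the 41 genes without overlap. Their direction is fixed under any pseudocount, filter or subset of libraries, so for them those alternatives could not show a change. Differences smaller than 1 were not judged for direction. That of H2-Aa, for example, was 0.0087 for the 16 and -0.0037 for libraries 9 to 16 alone. The size of the 82 moved by more than the spread within the 16 for 54 in the variance-stabilised values, 45 at a pseudocount of 2 and 32 at a pseudocount of 0.1. It moved so for 29 against the others numbered 59 or higher and for at most 14 under each other alternative. The counts moved as follows. Genes without overlap numbered 44 higher and 42 lower with TMM library sizes, 42 and 46 with DESeq2 size factors, and 42 and 45 in the deposited variance-stabilised values, each set holding 19 and 20 of those reported. Synj2 and Sephs2 were lost under these 3. With totals formed without acinar and hormone genes 39 were higher, and Sephs2 was lost. Without libraries 66 to 75 among the others 34 were lower. Against the others numbered 58 or lower they numbered 76 and 52, and against those numbered 59 or higher 33 and 60. Libraries 9 to 16 alone gave 36 and 37, and leaving out libraries over 25% acinar counts gave 50 lower. Fewer others or fewer of the 16 make a gap easier to reach by construction. Genes shifted in both stretches numbered 439 lower at a pseudocount of 0.1, 131 higher and 127 lower at a pseudocount of 2, 97 and 78 in the variance-stabilised values, and 446 lower against the others numbered 59 or higher. The cause was not tested. Leaving out each of the 16 in turn gave 19 to 23 higher and 22 to 24 lower genes without overlap, and 217 to 244 higher and 249 to 268 lower shifted genes. The all-gene median difference was -0.08 in CPM, 0.01 with TMM, -0.001 with size factors and 0.02 without acinar and hormone genes. No paired analysis was possible because the labels give no groups. Levels under the 3-count floor, such as Ly6c1 in the 16, cannot be told from 0.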
